A study of Homo sapiens with 7 samples.

Results

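The proteasome genes described here were all genes of the guide library whose symbol is PSM, a letter from A to G and a number. The rule gave 48 of 19112 genes and 192 of the 77441 guides, with 4 guides per gene. The screen was run in HCT116, a human colorectal carcinoma line, as 1 clone with a GFP reporter of splicing placed at AAVS1. The reporter held OGT intron 4 with its neighbouring exons between β-globin exons. A CMV promoter drove it, and its GFP is higher when the intron is spliced out than when it is detained. Cells received Cas9 guides of the Brunello library at an MOI of 0.3 and puromycin for 8 days from day 2. All cells were then given 1 µM of thiamet G (TG), an OGA inhibitor that raises O-GlcNAc, from day 9 for 24 h, with fresh TG every 12 h. On day 10, the cells brightest for GFP were collected by sorting (sorted cells). Guides were counted in 3 libraries of sorted cells, 3 libraries of unsorted input cells and 1 library of the guide pool, and no cells without TG were included. The comparison of sorted with input cells asked which gene losses raised GFP output, and that of input with the pool showed which guides had become scarce by day 10.

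The proteasome is the protease that degrades ubiquitin-tagged proteins in the nucleus and cytoplasm. Its barrel-shaped core is built of outer alpha rings and inner beta rings, and 3 of the beta subunits (PSMB5, PSMB6 and PSMB7) are catalytic. A regulatory particle caps the core. Its base carries 6 ATPases (PSMC1 to PSMC6) that unfold substrates, and its lid carries the deubiquitinase PSMD14. Dedicated chaperones assemble the core and the base, PSME proteins activate the core without ubiquitin, and immune, thymus and testis cells make paralogs of some core subunits. Dividing cells need the constitutive subunits, so their guides are usually lost from growing cultures.

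Guides are shown for PSMC4 and PSMD1, the members with the smallest p in either direction, and for PSMB5 and PSMB8, the constitutive and immune forms of 1 catalytic subunit. Each is written 5′ to 3′ as its genomic target in lower case, with the PAM that Cas9 needs next to it in capitals, and guides are numbered along the coding sequence.
PSMC4 guide 1: gatcagaatacagccatcgtGGG
PSMC4 guide 2: gtgatgtacgcggacatcggAGG
PSMC4 guide 3: gcatttcgagctctacaagcAGG
PSMC4 guide 4: tggctgtgggaagaccatgtTGG
PSMD1 guide 1: tcactacaccaaacaatgtgTGG
PSMD1 guide 2: gttagccagagccactaactGGG
PSMD1 guide 3: ccttagatcgttagacacggTGG
PSMD1 guide 4: tgaatctctctgtcgtgacaAGG
PSMB5 guide 1: ccgctaccggtgaaccagcgCGG
PSMB5 guide 2: gcttcatggaacaaccacccTGG
PSMB5 guide 3: tttgtactgatacaccatgtTGG
PSMB5 guide 4: atctgtggctgggataagagAGG
PSMB8 guide 1: ccagagctcgctttaccccgGGG
PSMB8 guide 2: aaggaacgttcagattgagaTGG
PSMB8 guide 3: actaatgtaggacccagctgAGG
PSMB8 guide 4: tggagaacgtatttcagtgtCGG

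All of these guides matched GRCh38 at 1 place, within coding sequence, and positions leave out the PAM. The PSMC4 guides lay on the plus strand at chr19:39972522-39972541 in exon 3, chr19:39974538-39974557 and chr19:39974612-39974631 in exon 5, and chr19:39974779-39974798 in exon 6 of 11 exons. Those of PSMD1 lay on the plus strand at chr2:231066919-231066938 in exon 5, chr2:231079551-231079570 in exon 11, chr2:231082877-231082896 in exon 13 and chr2:231083742-231083761 in exon 14 of 25 exons. Those of PSMB5 lay at chr14:23034835-23034854 and chr14:23034695-23034714 in exon 1 on the minus strand, and at chr14:23033423-23033442 (plus strand) and chr14:23033376-23033395 (minus strand) in exon 2 of 3 exons. Those of PSMB8 lay at chr6:32843860-32843879 (minus strand) in exon 1, at chr6:32843032-32843051 (minus strand) and chr6:32842940-32842959 (plus strand) in exon 2, and at chr6:32842226-32842245 (minus strand) in exon 4 of 6 exons. Of the 192 guides, 190 had 1 perfect site in the genome and 187 cut within coding sequence. For the remaining 5, the base just 3′ of the cut lay in an intron of the canonical transcript. In 3 of them (against PSMD6, PSME1 and PSME2) that base adjoined a coding exon, so the cut fell at the exon's edge. In 2 (against PSMG4) it was 455 and 493 bases from one.

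The cell libraries held 26155295 to 31047546 reads, the median guide having 263 to 321 of them, and the guide pool 35774845 reads. Guides of the 48 genes took 0.244% of reads in the guide pool, 0.186% to 0.189% in the input libraries and 0.167% to 0.190% in the sorted libraries. None of the 192 guides was at 0 in the pool, and at most 1 was in any input library. In the sorted libraries 30 to 32 of them (15.6% to 16.7%) were at 0, against 7.26% to 10.8% of all guides. Zero values were thus frequent in sorted cells, and more so for these genes.

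Relative to the guide pool, input cells held fewer guides against many constitutive subunits. Each ratio to the guide pool was a log2 ratio averaged over the 4 guides of a gene, set so that the median guide was at 0 in each input library. With 1 pool library this comparison has no test, and the SD given is that over the 3 input libraries. The median over the 48 genes was -0.41 (0.752-fold), against -0.04 for all genes. Of the 48, 13 were at or below -1, a 2-fold lower level, or 27.1% against 1.61% of all genes. All 13 were among the 31 constitutive subunits of core, base and lid, whose median was -0.76 (0.590-fold), and the other 17 genes had a median of -0.06. For comparison, 83 ribosomal protein genes (RPL or RPS and a number, with or without a suffix A, L, X or Y) had a median of -0.94. Of these 83, whose suffixed members can be paralogs, 41 were at or below -1. The median of 374 olfactory receptor genes was 0.03.

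**Figure D1:**
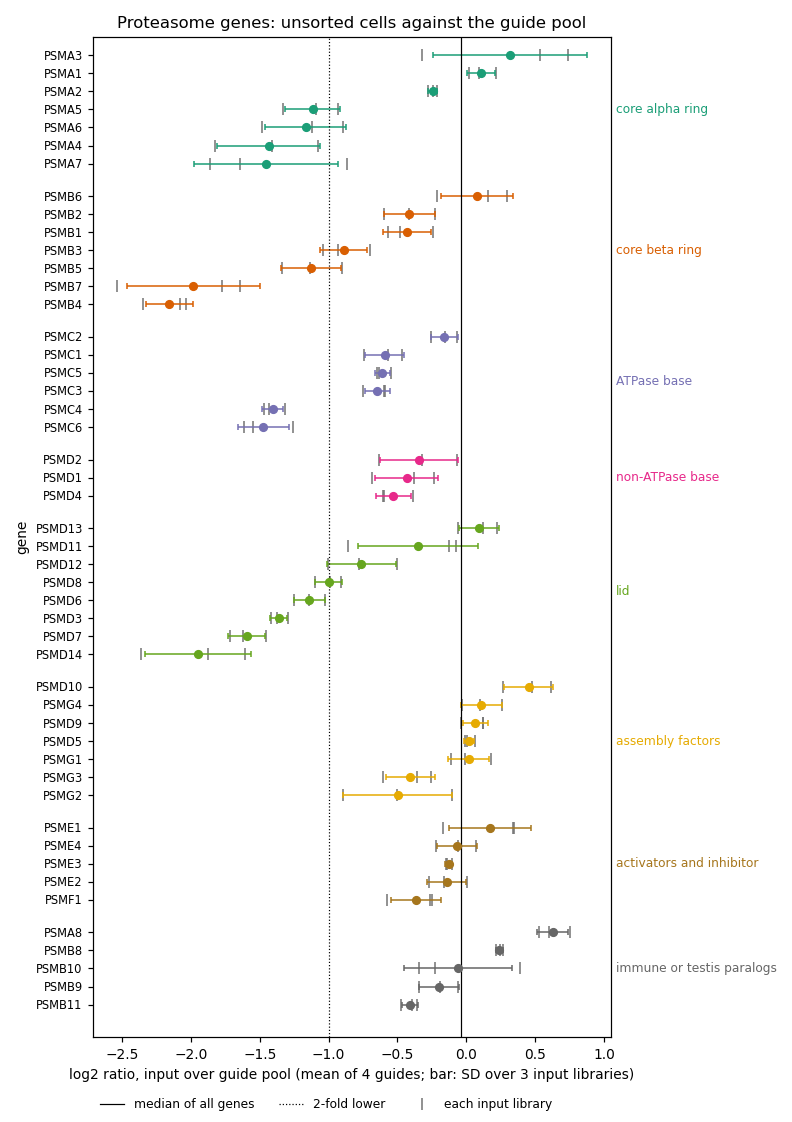
Log2 ratio of input cells over the guide pool (x axis) for each of the 48 proteasome genes (y axis, grouped by class). Dots are means of 4 guides, bars the SD over the 3 input libraries and ticks the single libraries; the solid line is the median of all genes (-0.04) and the dotted line a 2-fold lower level. Genes to the left of the dotted line belong to the alpha ring, the beta ring, the ATPase base and the lid.

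Within the core, PSMB4, a non-catalytic beta subunit, had the lowest mean of the 48. Its ratios were -2.08, -2.04 and -2.35 in the 3 input libraries (mean -2.16 ± 0.17, SD, n = 3), and it was the only one of the 48 genes with all 4 guides at or below -1. PSMB7, the catalytic subunit with trypsin-like activity, followed at -1.64, -1.77 and -2.54 (mean -1.98 ± 0.48). PSMB5, the chymotrypsin-like subunit bound by bortezomib, stood at -0.90, -1.34 and -1.13 (mean -1.13 ± 0.22). PSMB6, the remaining catalytic subunit, did not share this level, with ratios of -0.22, 0.29 and 0.16 (mean 0.08 ± 0.26). PSMB3 was just short of the limit at -0.89 ± 0.17, and PSMB1 (-0.43 ± 0.17) and PSMB2 (-0.41 ± 0.19) were nearer to the median of all genes. In the alpha ring, which gates the entry to the core, PSMA7 (-1.45 ± 0.52), PSMA4 (-1.44 ± 0.37), PSMA6 (-1.17 ± 0.30) and PSMA5 (-1.12 ± 0.20) passed the limit. PSMA2 stood at -0.24 ± 0.03, PSMA1 at 0.11 ± 0.10 and PSMA3 at 0.32 ± 0.56. The order of PSMA7 and PSMA4 is not set by these libraries, since their values overlap. The same holds for PSMB4, PSMB7 and the lid subunit PSMD14.

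In the regulatory particle the lid and 2 ATPases stood lowest. PSMD14, the deubiquitinase that removes ubiquitin from substrates, was at -1.87, -2.36 and -1.61 (mean -1.95 ± 0.38). The other lid subunits at or below -1 were PSMD7 (-1.60 ± 0.13), the partner of PSMD14, PSMD3 (-1.36 ± 0.06) and PSMD6 (-1.14 ± 0.11). PSMD8 lay just above the limit at -0.9999 ± 0.10, so the count of 13 turns on a small margin there. PSMD12 was at -0.76 ± 0.25, PSMD11 at -0.35 ± 0.44 and PSMD13 at 0.09 ± 0.15. Of the ATPases, PSMC6 was at -1.47 ± 0.19 and PSMC4 at -1.40 ± 0.08, whereas PSMC3 (-0.65 ± 0.09), PSMC5 (-0.61 ± 0.05), PSMC1 (-0.59 ± 0.14) and PSMC2 (-0.16 ± 0.10) were higher. The non-ATPase base subunits, the ubiquitin receptor PSMD4 (-0.53 ± 0.13) and the scaffolds PSMD1 (-0.43 ± 0.23) and PSMD2 (-0.34 ± 0.28), lay close together. None of these 3 reached the limit.

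Assembly factors and activators stood near the median of all genes. The chaperones of the core, PSMG1 to PSMG4, lay between -0.50 (PSMG2, ± 0.40) and 0.11 (PSMG4, ± 0.15). Those of the base, PSMD5 (0.02 ± 0.04), PSMD9 (0.07 ± 0.09) and PSMD10 (0.45 ± 0.18), were at or above 0. The activators PSME1 to PSME4 lay between -0.14 (PSME2) and 0.17 (PSME1). PSMF1, an inhibitor of the core in the test tube, stood at -0.36 ± 0.18.

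The paralogs made in immune cells, thymus or testis stood apart from most of the subunits they replace. PSMA8, the testis form of PSMA7, was at 0.53, 0.60 and 0.75 in the input libraries, against -0.86, -1.64 and -1.86 for PSMA7. PSMB8, the immune form of PSMB5, was at 0.21, 0.27 and 0.24, and PSMB11, the thymus form, at -0.39, -0.36 and -0.47. All 3 input libraries of PSMB5 were below those of both of its paralogs. PSMB10, the immune form of PSMB7, was at -0.34, 0.39 and -0.23, again above PSMB7 in each library. PSMB10 guide 1 had 1 read in the pool, and the other 3 guides of PSMB10 alone gave -0.30, 0.06 and -0.14. PSMB6 was the exception, since its immune form PSMB9 (-0.19, -0.06 and -0.35) overlapped with it. PSMB5 and PSMB11 are neighbours on chromosome 14, with 7.63 kb between their nearest guides.

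Guides against the same gene differed widely. The range over the 4 guides of a gene had a median of 1.51 on the log2 scale, from 0.36 for PSMD10 to 4.12 for PSMB7. Of the 48 genes, 18 had no guide at or below -1, 16 had 1, 8 had 2, 5 had 3 and 1 had 4. In all 51 of the 192 guides (26.6%) were at or below -1, against 7.74% of all targeting guides. By class these were 13 of 32 lid guides, 12 of 28 beta ring guides, 11 of 28 alpha ring guides, 9 of 24 ATPase guides and 3 of 12 non-ATPase base guides. Among the other classes they were 2 of 28 assembly factor guides, 1 of 20 paralog guides and 0 of 20 guides of activators and the inhibitor. Over the 187 coding guides, place along the coding sequence and ratio had a Pearson r of -0.04 (Spearman rho -0.03), a description over guides that share genes and libraries.

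The 4 genes whose guides are printed above show how guides differed. PSMC4 guide 2 had 458 reads in the pool, normalised counts of 33.7, 28.0 and 36.4 in input cells and 0 in all 3 sorted libraries. With a floor of 3 reads per library, it was at least 11.1-fold lower in sorted than in input cells (limma, adjusted p = 0.038). PSMC4 guide 1 was at 75.7, 54.3 and 80.7 in input and at 25.3, 463 and 0 in sorted cells, so the guides of this gene did not move alike. PSMB5 guide 2 went from 847 pool reads to 123, 49.0 and 85.0 in input cells, and guide 3 from 602 to 379, 467 and 313. The former was at 188, 3.43 and 94.5 in sorted cells, and the latter at 426, 1565 and 1077. PSMB8 guides were steadier, guide 3 being at 746, 689 and 738 in input and at 721, 735 and 486 in sorted cells. PSMB8 guide 4 was above its input range in every sorted library, with 725, 1232 and 1210 against 503, 497 and 461 (limma, adjusted p = 0.32).

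**Figure D2:**
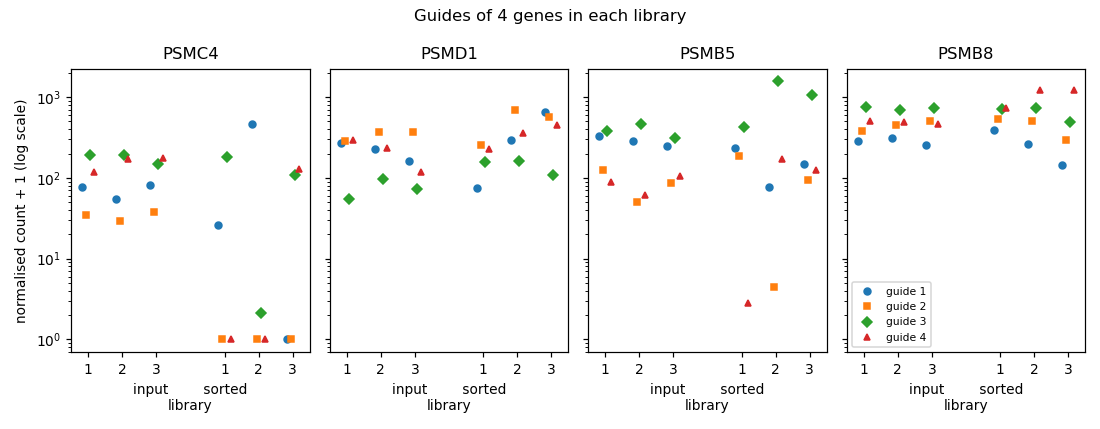
Normalised count plus 1 (y axis, log scale) of each of 4 guides in the 3 input and 3 sorted libraries (x axis) for PSMC4, PSMD1, PSMB5 and PSMB8. Points are single values, and those on the bottom line are at 0. PSMC4 guide 2 is at 0 in all 3 sorted libraries, whereas no guide of PSMD1, PSMB5 or PSMB8 is at 0 in any of them.

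No proteasome gene passed the tests for enrichment or depletion in high-GFP cells. Guides were tested with limma and genes ranked by robust rank aggregation (RRA), which asks whether the guides of a gene lie together near one end of the list of all guides. RRA called 0 of the 48 genes in either direction at an adjusted p of 0.05, against 0.314% of all genes enriched and 0.00523% depleted. The smallest adjusted p of the 48 was 0.79 for depletion and 0.96 for enrichment. At an unadjusted p under 0.05, RRA gave 6 genes as depleted (12.5%, against 5.53% of all genes) and 0 as enriched (5.47% of all genes). Of the 83 ribosomal protein genes, it gave 11 as depleted (13.3%) and 5 as enriched. Of the 308 genes of the library at or below -1 in input over pool, it gave 47 as depleted (15.3%) and 54 as enriched. limma on gene means called 0 of 48, with a smallest adjusted p of 0.14, against 0.0157% of all genes higher and 0.0% lower. At an unadjusted p under 0.05 limma gave 13 as lower (27.1%, against 13.9% of all genes) and 0 as higher (1.96%). The share lower by limma was 15.7% for the ribosomal protein genes and 22.1% for the 308 genes. edgeR on summed reads called 0 of 48, against 0.272% of all genes higher and 0.0% lower, with 2 lower (2.76% of all genes) and 0 higher (5.28%) at an unadjusted p under 0.05.

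Although no gene passed, most of the constitutive subunits lay below the median of all genes in sorted cells. The median log2 fold change, sorted over input, was -1.14 for the 48 genes and -0.56 for all genes, a difference of -0.58. In the single sorted libraries the difference was -0.74, -0.22 and -0.89. The 31 constitutive subunits had a median 1.11 below that of all genes, with 24 of 31 below it, and the other 17 genes one 0.15 above it, with 6 of 17 below. For the 31 the difference was -1.17, -0.26 and -1.06 in the single sorted libraries, and between -1.11 and -0.70 (without the third sorted library) when 1 library was left out. By class the difference was -1.27 for the ATPases, -1.19 for the alpha ring, -1.07 for the lid and -0.74 for the beta ring. It was -0.09 for the non-ATPase base, 0.03 for assembly factors, 0.09 for activators and the inhibitor and 0.23 for the paralogs. Single libraries moved these values. Without the third sorted library the alpha ring was at -0.33 and the non-ATPase base at -0.70, without the second the beta ring was at -0.36, and without the first the ATPases were at -0.69, whereas the lid stayed between -1.39 and -0.9996. The last 4 classes changed sign with 1 library left out, over ranges of -0.70 to 0.31, -0.30 to 0.06, -0.36 to 0.75 and -0.21 to 0.57 in the order given, so no direction can be read for them. In 18 of 48 genes every sorted library was below every input library (37.5%, against 22.9% of all genes), and in 0 every sorted library was above (4.56%). For the ribosomal protein genes the difference in median log2 fold change from all genes was -0.12 (-0.51, -0.0083 and 0.0027 in the single sorted libraries). For the 308 genes of the whole library at or below -1 in input over pool it was -0.25 (-0.72, -0.067 and -0.35). Among the 48, the 13 genes at or below -1 in input over pool were at -1.24 and the other 35 at -0.24. The ratio to the pool and the log2 fold change had a Pearson r of 0.39 over the 48 genes and 0.05 over all genes. Whether the ratio to the pool bears on these differences was not tested.

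**Figure D3:**
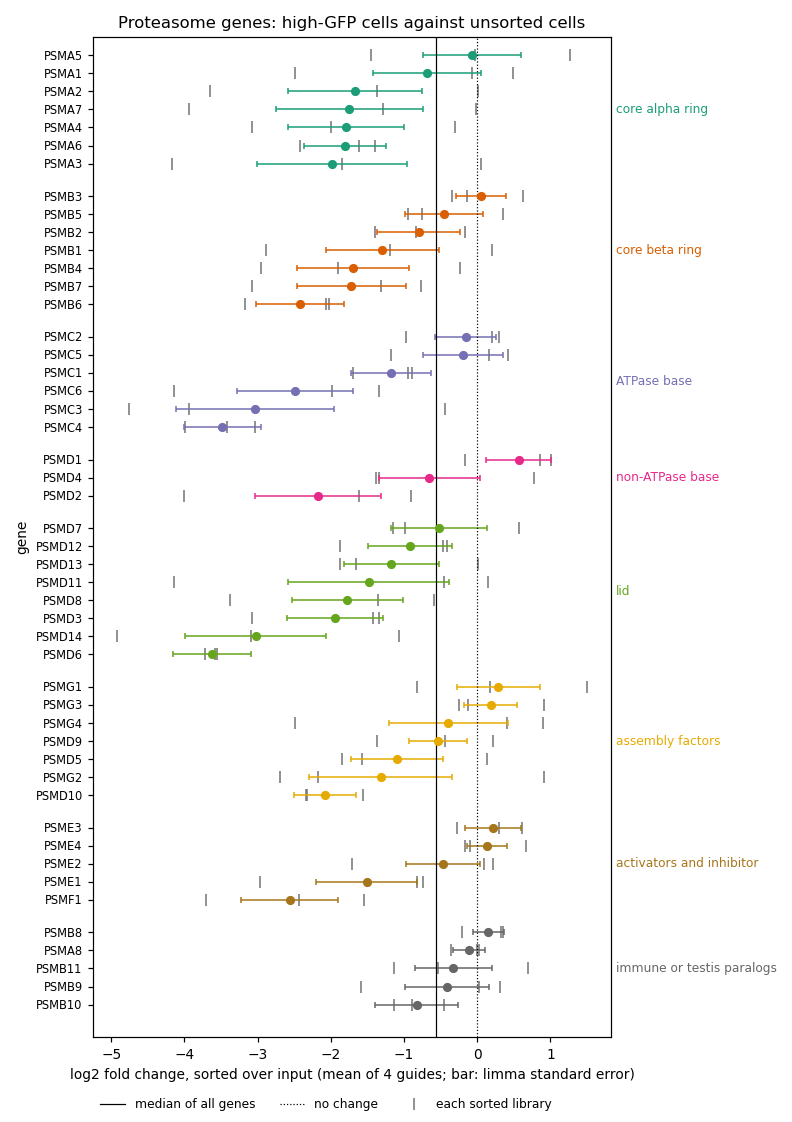
Log2 fold change of sorted over input cells (x axis) for each of the 48 proteasome genes (y axis, grouped by class). Dots are means of 4 guides, bars limma standard errors and ticks the single sorted libraries against the input mean; the solid line is the median of all genes (-0.56) and the dotted line no change. Ticks of 1 gene often lie several log2 units apart, and none of the genes passed the test.

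The size of this difference varied with the treatment of guides with few reads. Of the 192 guides, 88 (45.8%) had a mean input count under 200, against 33.9% of all targeting guides. In this range 30.3% of the sorted values of the proteasome guides were 0, against 20.3% for all targeting guides, and the median guide log2 fold change differed by -0.56. Among the 104 guides with 200 or more, 4.49% of sorted values were 0, against 2.63%, and the difference was -0.12. With guides under 200 left out, 6 genes had no guide (PSMA6, PSMB7, PSMC4, PSMD3, PSMD7 and PSMG2), and the difference between the median of the other 42 and that of all genes became -0.065. The same 42 genes with all their guides were at -0.33, so part of the shift came with the loss of these 6. With edgeR on summed reads the difference was -0.081 over the 48 genes. For the constitutive subunits it was -0.17 over the 26 that kept a guide (-0.85 with all guides of those 26), and -0.095 over all 31 with edgeR. Both comparisons use the same input libraries, so the ratio to the pool and the fold change of a gene are not independent of each other.

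**Figure D4:**
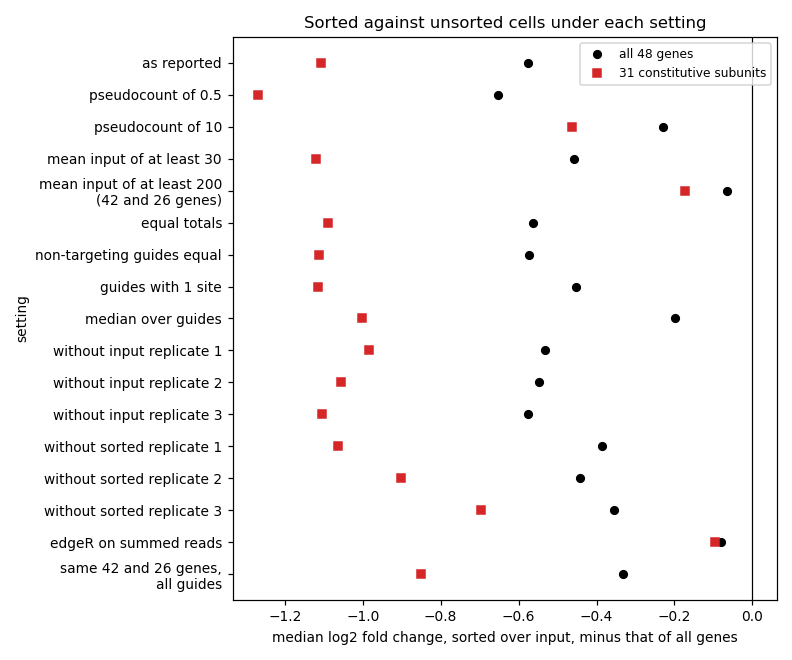
Median log2 fold change of sorted over input cells minus that of all genes (x axis) under each setting (y axis), for all 48 proteasome genes (black circles) and the 31 constitutive subunits (red squares). The difference is -0.065 when guides with a mean input under 200 are left out, where 42 of the 48 genes and 26 of the 31 subunits keep a guide, and -0.081 for the 48 genes when edgeR is run on summed reads.

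In the base, PSMC4 (RPT3) had the smallest depletion p of the 48. The geometric means of its guides' normalised counts plus 1 were 87.8, 85.6 and 94.3 in input and 8.32, 5.62 and 10.9 in sorted cells. The groups did not overlap, and the log2 fold change was -3.48 ± 0.52 (SE; limma, adjusted p = 0.14; RRA with its exact null, p = 0.0057, adjusted p = 0.79). PSMC1 (RPT2), with the smallest enrichment p of the ATPases, was at 119, 144 and 134 in input and at 40.6, 71.5 and 68.4 in sorted cells. All 3 sorted values were lower here too. Of the remaining ATPases, PSMC3 was at -3.04 ± 1.08 and PSMC6 at -2.49 ± 0.80, and PSMC2 (-0.16 ± 0.41) and PSMC5 (-0.20 ± 0.55) were within 1 SE of 0. Among the scaffolds, PSMD2 (RPN1) went from 112, 165 and 138 to 44.7, 72.7 and 8.52. PSMD1 (RPN2) went from 188, 208 and 152 to 161, 328 and 365, and its groups overlapped. Its log2 fold change of 0.57 ± 0.44 (limma, adjusted p = 0.51) was the highest of the 48, and it had the smallest enrichment p (RRA with its exact null, p = 0.078, adjusted p = 0.96). None of its 4 guides was below 0 in the fit, whereas all 4 were for PSMC4.

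In the lid, PSMD6 (RPN7) had the lowest log2 fold change of all 48. Its geometric means were 186, 173 and 200 in input and 15.5, 14.1 and 15.8 in sorted cells. The gene means of input and sorted cells were far apart, and the log2 fold change was -3.62 ± 0.53 (limma, adjusted p = 0.14; RRA with its exact null, p = 0.0086, adjusted p = 0.80). All 4 guides were below 0 in the fit, but they did not move alike in each library. Guide 2 was at 415, 348 and 394 in input and at 687, 8.00 and 754 in sorted cells. PSMD6 guide 1, which cut at the edge of a coding exon, was at 83.1, 38.5 and 63.3 in input cells. It was at 0 in every sorted library, at least 20.9-fold lower (limma, adjusted p = 0.038). Together with PSMC4 guide 2 it made 2 of 192 guides that passed limma's test, against 0.69% of all targeting guides. Both guides were at 0 in every sorted library, so their sorted values had no spread (SD 0) for limma to measure. PSMD14 was at -3.02 ± 0.96, PSMD3 at -1.95 ± 0.66 and PSMD8 at -1.78 ± 0.76. PSMD7 (RPN8), the lid subunit with the smallest enrichment p, went from 75.4, 80.2 and 89.8 to 41.0, 121 and 36.9. Its second sorted library was above all input libraries and the others below.

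In the core, PSMA6 had the smallest depletion p of the alpha ring (RRA with its exact null, p = 0.0060, adjusted p = 0.79). It was at 48.2, 61.8 and 71.9 in input and at 22.7, 11.2 and 19.5 in sorted cells, and no sorted value reached the input range. PSMA5, with the smallest enrichment p of that ring, went from 215, 182 and 239 to 76.7, 206 and 507, so its sorted libraries lay on both sides of the input. In the beta ring PSMB6, whose ratio to the pool was near 0, went from 128, 182 and 165 to 17.4, 38.4 and 37.3. Its log2 fold change was -2.42 ± 0.60 (limma, adjusted p = 0.20). PSMB5, with the smallest enrichment p of the beta ring, went from 193, 142 and 163 to 85.2, 97.8 and 210, and the groups overlapped. PSMB4 and PSMB7, the core subunits with the lowest mean ratios to the pool, were at -1.70 ± 0.77 and -1.72 ± 0.74.

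Assembly factors, activators and paralogs gave values of both signs. PSMD9, a base chaperone, was at 444, 444 and 395 in input and at 314, 165 and 495 in sorted cells. PSMG1, which acts early in core assembly, was at 222, 272 and 237 and at 137, 689 and 275. Both had overlapping groups. PSMD10 (gankyrin) was the lowest of the class at -2.08 ± 0.42, with all 4 guides below 0 in the fit (limma, adjusted p = 0.17). PSMF1 went from 287, 229 and 282 to 90.5, 49.1 and 20.3, with no overlap (log2 fold change -2.56 ± 0.66; limma, adjusted p = 0.20; RRA with its exact null, p = 0.048, adjusted p = 0.90). PSME3, a nuclear activator, went from 211, 212 and 216 to 176, 327 and 263. Its sorted libraries lay on both sides of a narrow input range. PSMB10 went from 73.8, 123 and 79.5 to 48.2, 40.9 and 65.5. PSMB8 went from 453, 470 and 459 to 576, 586 and 398. Paired by what they replace, the log2 fold changes were -1.75 ± 1.0 for PSMA7 and -0.11 ± 0.21 for PSMA8, -0.45 ± 0.53 for PSMB5, 0.15 ± 0.21 for PSMB8 and -0.32 ± 0.52 for PSMB11. They were -2.42 ± 0.60 for PSMB6 and -0.41 ± 0.58 for PSMB9, and -1.72 ± 0.74 for PSMB7 and -0.83 ± 0.57 for PSMB10.

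Leaving out the sorted library in the first place changed the calls. limma then called 7 of 48 genes lower, namely PSMB6, PSMC3, PSMC4, PSMD6, PSMD10, PSMF1 and the core chaperone PSMG2, against 5.27% of all genes. Their log2 fold changes in that fit ranged from -4.35 (PSMC3) to -2.05 (PSMB6). With any other library left out limma called 0 of 48, and RRA called 0 of 48 with each library left out.

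Other genes of the ubiquitin and proteasome pathway passed in neither direction. RRA called 0 of 25 (smallest adjusted p 0.54 for depletion), and 5 of 25 were at or below -1 in input cells. UBA1, the main ubiquitin-activating enzyme, was at -1.19 against the pool and went from geometric means of 147, 96.2 and 133 in input to 16.0, 4.41 and 4.995 in sorted cells. Its log2 fold change was -4.13 ± 0.66 (limma, adjusted p = 0.14). AKIRIN2, which brings proteasomes into the nucleus, was at -2.01 against the pool and at -3.05 ± 0.58 in sorted over input cells. SHFM1, the small lid subunit also named SEM1, was at -0.41 and -0.15 ± 0.45. Of the ubiquitin shuttles and unfolding factors, UBQLN2 was at 0.37 and -2.53 ± 0.75, and UFD1L, a partner of VCP, at -0.46 and -1.99 ± 0.92. NFE2L1, the factor that raises proteasome gene transcription when the proteasome is inhibited, was at -0.13 and 0.18 ± 0.18, and DDI2, the protease that activates it, at 0.50 and -1.01 ± 0.41.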

How the data were processed

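Per the submitters' notes, reads were checked with FastQC 0.11.9, trimmed with cutadapt 3.3 and analysed with MAGeCK against the Brunello guides. The authors deposited a normalised count (a signal) per guide for input and sorted cells, as 3 values joined by slashes, and a raw read count per guide for the pool. The sources differ on whether the pool was plasmid DNA or unselected cells. The deposited fold changes, p-values and gene summary hold the authors' own comparison and were not used. Libraries are numbered by place in the deposited values, which carry no replicate numbers, and which of them was the pilot (100-fold coverage, against 300-fold) is not known here. Divided by 1 factor per library, 100% of low values came out whole within 0.1 of a read, which gave reads for edgeR. Of 77441 guides, 77388 were tested and 53 were left out as 0 in all 6 cell libraries; all 192 proteasome guides were tested.

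Guides and gene means were tested on log2 of the normalised count plus 1 with limma 3.58.1 (R 4.3.3), all guides or genes entering 1 fit with Benjamini-Hochberg adjustment at 0.05. RRA was re-implemented in python 3.11.15 with an exact null (alpha 0.25), which takes guides as independent. edgeR 4.0.16 was run on summed reads as an alternative. The scripts were tested on simulated data. Guides were matched to GRCh38 as 20 bases followed by NGG, and exons are those of the GENCODE 44 canonical transcript. Genes shown in every library were, per class, those with the smallest RRA p in each direction; other pathway genes named were 2 per list by the same p, of which 1 is not reported here. The members, classes and lists were chosen with earlier results of these data known. The labels call the 3 libraries of a group biological replicates, and the p-values of limma and edgeR measure the spread between them. Those of RRA measure how closely the guides of a gene lie together at one end of the ranking. Floors cover counting error only.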

Additional observations from a re-analysis of the deposited data

How the results depend on the processing

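No paired analysis was possible because the deposited values carry no replicate numbers. RRA called 0 genes under each of 16 alternatives, run on 48 genes or, with a mean input of at least 200, on the 42 that kept a guide (pseudocounts, input minimums, scalings, guides with 1 site, alpha, threshold, single libraries left out). limma on gene means called 0 under 14 of 15 alternatives, and 0 to 7 with single libraries left out. The median difference from all genes (-0.58) became -0.065 with a mean input of at least 200 (42 genes; -0.33 for these with all guides, an alternative chosen after seeing the data), -0.20 with the median over guides and -0.081 with edgeR on summed reads, and was -0.58 to -0.35 with single libraries left out. Over all alternatives it ranged from -1.42 to -0.099 for the alpha ring, -0.998 to 0.0043 for the beta ring, -1.54 to 0.21 for the ATPases and -1.39 to -0.16 for the lid. With the median over guides, 10 rather than 18 genes had every sorted library below every input library (8.73% of all genes). The ratio of input to pool (-0.41) became -0.70 when non-targeting guides were set equal, where the median of all genes was -0.33, 16 of the 48 genes and 825 of all genes being at or below -1; over all alternatives 11 to 16 of the 48 were.

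Relative to all genes, several fold changes changed sign. PSMA5 was at 0.49, and between -0.18 and 1.22 with single libraries left out. PSMB5 (0.11) became -0.028 with the median over guides, and lay between -0.29 and 0.39 with libraries left out. PSMC1 (-0.62) became 0.55 with a mean input of at least 200 and 0.26 with edgeR, and PSMD2 (-1.61) became 0.35 with that minimum. PSMD7 (0.037) became -0.062 with a pseudocount of 0.5, and lay between -0.65 and 0.35 with libraries left out. PSMD9 (0.025) became -0.18 with a pseudocount of 10 and -0.34 with a mean input of at least 200. It became -0.24 with the median over guides and -0.41 with edgeR, and lay between -0.34 and 0.30 with libraries left out. Other fold changes relative to all genes kept their sign while their size varied. Over all alternatives PSMD6 (-3.06) ranged from -4.25 to -0.86 and PSMC4 (-2.92) from -4.45 to -0.74. PSMB6 (-1.86) ranged from -2.20 to -0.68 and PSMF1 (-2.00) from -2.47 to -0.50. The cause of these changes was not tested. Many guides were at 0 in sorted cells, and this limits what the fold changes of single genes can show.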

Other observations

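Of the 5 guides not placed within coding sequence, the PSMD6 guide, at the edge of a coding exon, had a log2 ratio of input to pool of -3.16. Those against PSME1 and PSME2, also at an exon's edge, had ratios of 0.46 and -0.37. The 2 PSMG4 guides, within an intron, had ratios of 0.01 and -0.11. A PSMC1 guide with 2 perfect sites in the genome was at -1.50, and a PSMD10 guide with 2 sites at 0.52. PSMB8 and PSMB9, neighbours on chromosome 6 with 10.4 kb between their nearest guides, were at 0.24 and -0.20, and PSME1 and PSME2, 6.14 kb apart on chromosome 14, at 0.17 and -0.14. The 1000 non-targeting guides, designed to match no place in the genome, had a median ratio of 0.29, and 3.10% of them were at 0 in at least 1 sorted library, against 34.4% of proteasome guides and 20.4% of all targeting guides.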
